A study of Mus musculus with 7 samples.

Results

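The KATP channel gene pairs are the 4 genes Abcc8, Kcnj11, Abcc9, and Kcnj8. Their accessible chromatin was read from ATAC-Seq peak lists of FACS-sorted alpha, beta, and delta cells of mouse islets. In ATAC-Seq, a transposase inserts adapters into open chromatin, and a peak is an interval in which insertions pile up above the local background. The genes, chosen with earlier results of these data known, lie in 2 neighbouring pairs. Their peak intervals were taken by position alone, where they overlap the gene bodies of a pair or the 20 kb on either side. Of 1190565 intervals in 7 lists, 150 met this rule, and they merged into 81 of the 834695 regions found across all lists. All mice carried the reporters Rosa-LSL-YFP and mIns1-H2b-mCherry and a Cre driver, which was Gcg-Cre or Sst-Cre. The mCherry is driven by an Ins1 promoter and marks beta cells. The YFP stays on in every cell that has once made the Cre, so it marks a lineage rather than a present state. The labels give 2 alpha, 3 beta, and 2 delta libraries of healthy mice pooled by sex, and they give neither the age of the mice nor the Cre driver of a library. In the paper, beta cells were sorted beside alpha cells in the Gcg-Cre cross and beside delta cells in the Sst-Cre cross. All 3 lists labelled beta have a different cell type in their names. The labels were followed, and all beta values depend on them.

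KATP channels couple the energy state of a cell to its membrane potential. A pore of Kir6 subunits is surrounded by sulfonylurea receptors, ATP closes the pore, and ADP acting through the receptor opens it. In beta cells, the closing of the channel after glucose uptake depolarizes the membrane and starts insulin secretion, and sulfonylureas, used in diabetes, close it directly. Kcnj11 encodes the pore subunit and Abcc8 the sulfonylurea receptor of this channel, which alpha and delta cells also use. Kcnj8 and Abcc9 encode the second pore and receptor, best known from vascular smooth muscle and pericytes.

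On GRCm38, Abcc8 (chr7:46104523-46180033) and Kcnj11 (chr7:46093953-46100764) are both read from the minus strand, and 3758 bp lie between them. Abcc9 (chr6:142587862-142702315) and Kcnj8 (chr6:142564837-142571614) have the same order on the minus strand, with 16247 bp between them. In each pair the receptor gene comes first and the pore gene follows downstream. The windows span 126 kb on chromosome 7 and 177 kb on chromosome 6. Each receptor gene also holds an antisense RNA gene on the plus strand, Gm45486 in Abcc8 and 5330439B14Rik in Abcc9. On chromosome 7 the window also touches Nomo1 and Ush1c, which are protein-coding, the pseudogene Gm18706, and Gm45487.

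Peak calls of this kind depend on the list. The weakest interval of each list had a -log10 p of 2.01. The number of intervals ranged from 75860 to 518503. Beta 1 had the longest list, in which 84.6% of the intervals stood at its lowest -log10 q. Only 5.0% of the intervals of beta 1 reached a -log10 q of 2, against 29.8% to 54.9% in the other lists. A -log10 q of 2 was therefore used as a stricter threshold beside the full lists, and both are given. The names of the lists also give a sequencing lane, which was lane 6 for both alpha libraries and beta 1 and lane 7 for beta 2, beta 3, and both delta libraries. Between alpha and delta cells, lane and cell type cannot be told apart. At their own 5′ end, the alpha markers Gcg, Irx2, and Ttr had a peak in both alpha libraries, and both delta libraries had one at all 4 delta markers (Sst, Hhex, Rbp4, and Ghsr). With a -log10 q of 2 required, each delta library had 3 of the 4. The Sst peak was then called in beta 1 and in no delta library. Gcg had none in the beta libraries and 1 in the delta libraries. Irx2 had a peak in all 7 libraries and Ttr in 6. Of 5 alpha markers, these among them, the delta libraries had 4 and 5 and the beta libraries 3, 2, and 4. The alpha libraries had 3 of the 4 delta markers each, and the beta libraries had 3, 0, and 0. Of 6 beta markers, the beta libraries had 4, 3, and 5, and the alpha and delta libraries had 4 each. Ins2 had a peak in 1 beta library and in no other library, and Slc2a2 had none in any, so these lists do not set beta libraries apart by defining beta markers.

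6 sequences carry the results. The first 4 are 200 bases around the strongest summit of a region, on the plus strand of GRCm38, and the others are RefSeq promoters on the strand of the gene (GRCm38.p6, 250 bases before to 50 bases after the start). The Abcc8 intron 19 element was the strongest peak of its window in every library. The Abcc8 intron 16 and intron 10 elements were called in 6 libraries each. The Abcc9 intron 24 element was the strongest peak of its window in all beta and delta libraries and was not called in alpha cells. The promoters are those of Kcnj8 and Abcc9, the pair with few or no peaks at the 5′ end. RefSeq promoters were at hand for 2 of the 4 members, and Abcc8 and Kcnj11 are named only. Capitals in the Abcc9 intron 24 element mark a tandem repeat, and capitals in the others mark a match to a motif searched.
Abcc8 intron 19 element (chr7:46123023-46123222): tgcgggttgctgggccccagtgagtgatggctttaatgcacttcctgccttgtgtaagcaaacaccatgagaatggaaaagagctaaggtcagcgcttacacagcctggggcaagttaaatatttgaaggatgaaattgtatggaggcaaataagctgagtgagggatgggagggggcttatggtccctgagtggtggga
Abcc8 intron 16 element (chr7:46131330-46131529): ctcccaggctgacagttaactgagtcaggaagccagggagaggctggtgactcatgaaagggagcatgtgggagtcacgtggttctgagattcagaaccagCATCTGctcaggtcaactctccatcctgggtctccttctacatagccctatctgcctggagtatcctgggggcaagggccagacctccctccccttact
Abcc8 intron 10 element (chr7:46145918-46146117): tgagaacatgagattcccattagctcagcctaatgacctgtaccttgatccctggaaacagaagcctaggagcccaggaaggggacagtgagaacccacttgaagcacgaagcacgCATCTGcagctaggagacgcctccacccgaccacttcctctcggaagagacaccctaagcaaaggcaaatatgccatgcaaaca
Abcc9 intron 24 element (chr6:142631917-142632116): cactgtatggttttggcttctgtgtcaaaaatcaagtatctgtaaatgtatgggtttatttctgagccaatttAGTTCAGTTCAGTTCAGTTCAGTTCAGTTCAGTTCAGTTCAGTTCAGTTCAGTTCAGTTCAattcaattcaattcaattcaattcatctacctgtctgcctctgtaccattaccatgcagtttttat
Kcnj8 promoter (chr6:142571565-142571864): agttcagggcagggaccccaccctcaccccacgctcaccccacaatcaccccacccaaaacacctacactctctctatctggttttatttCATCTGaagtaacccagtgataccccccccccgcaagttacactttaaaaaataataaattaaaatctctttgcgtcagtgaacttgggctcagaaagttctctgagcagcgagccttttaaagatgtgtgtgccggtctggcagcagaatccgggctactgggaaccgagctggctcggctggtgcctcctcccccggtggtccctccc
Abcc9 promoter (chr6:142702225-142702524): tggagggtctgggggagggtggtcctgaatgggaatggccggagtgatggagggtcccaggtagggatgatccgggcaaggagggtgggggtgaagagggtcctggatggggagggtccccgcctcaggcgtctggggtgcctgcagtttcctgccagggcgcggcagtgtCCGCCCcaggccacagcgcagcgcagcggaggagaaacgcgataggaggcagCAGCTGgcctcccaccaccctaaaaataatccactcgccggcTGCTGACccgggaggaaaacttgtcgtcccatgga

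The Abcc9 intron 24 element stands out by its letters. It holds 61 bases of an uninterrupted repeat of agttc, with 12 full copies, followed by copies of a near variant of the unit. All of its 200 bases are soft-masked as repeats in the reference, against a median of 10.5% over 133685 windows of the same length, taken at all regions called in at least 2 libraries and free of unknown bases. A run of a 5-base unit this long was found in 92 of these windows (0.0688%). The element has no CpG and a GC content of 35.5%, against a median of 48.0%. The 3 printed Abcc8 elements have a GC content of 50.0%, 56.0%, and 52.5%, and none of their bases are soft-masked.

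The motifs searched, on both strands, were the GC box GGGCGG, the Foxa motif TGTTTAC, the NeuroD1 E-box CAGATG, the homeodomain motif TAATTA, the MARE core TGCTGAC of Maf factors, the CRE TGACGTCA, and the E-box CAGCTG. They do not overlap in the printed sequences. The intron 16 and intron 10 elements of Abcc8 each hold 1 NeuroD1 E-box, read as CATCTG on the printed strand, at positions 102 and 117 from the first printed base. This motif was present in 18.3% of all such windows. No motif of the 7 matched in the intron 19 element or in the Abcc9 intron 24 element. The Kcnj8 promoter holds 1 NeuroD1 E-box at position 91, as do 17.2% of 32851 RefSeq promoters. The Abcc9 promoter holds a GC box at position 172, a CAGCTG E-box at position 224, and a MARE core at position 266, which occur in 35.7%, 16.3%, and 4.67% of promoters. The Abcc9 promoter has 16 CpGs and a GC content of 65.7%, and the Kcnj8 promoter 9 CpGs and 53.3%, against a median of 7 CpGs and 52.7% over all promoters. These matches describe letters and are not binding sites.

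The receptor and the pore of the beta cell channel had a peak at their 5′ ends in at least 2 libraries of every cell type in the full lists. A transcription start site (TSS) peak means here one that overlaps the 1 kb before or after the gene's 5′ end. Fold enrichment is the signal at its summit over the local background within that library. The percentile is the rank of a peak by -log10 p within its own list. At the TSS of Abcc8, the fold enrichment was 7.61 and 4.50 in the alpha libraries, 3.23, 3.79, and 6.76 in the beta libraries, and 5.23 and 5.42 in the delta libraries. These ranges overlap, and the percentiles ran from 65.2 to 94.2. The peak reached a -log10 q of 2 in 6 libraries and stood at 1.32 in beta 1. At the TSS of Kcnj11, the fold enrichment was 8.05 and 8.52 in the alpha libraries and 8.65 and 6.36 in the delta libraries. In the beta libraries it was 3.23 in beta 2 and 5.06 in beta 3, and beta 1 had no peak there. Every alpha and delta value was therefore above every beta value. The beta lists also held the fewest intervals with a -log10 q of at least 2. These numbered 25903, 32047, and 38058, against 41683 to 52057 in the alpha and delta lists. The part of this in the Kcnj11 values was not tested. With a -log10 q of 2 required, the Kcnj11 peak was kept in both alpha libraries, both delta libraries, and 1 of 3 beta libraries, with beta 2 at 1.59. Beta 1 instead had a peak with a fold enrichment of 4.0 and a -log10 q of 2.12 in exon 2 of Kcnj11 (chr7:46098983-46099210), where no other library had one. It lies within 3 kb of the 5′ end, so all 7 libraries had a Kcnj11 peak in that wider window.

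By the percentile of the TSS peak, taken as 0 where there was none, no member passed the test between cell types. The percentile also reflects the length of a list, since beta 1 had the lowest fold enrichment at Abcc8 and the highest percentile. For Kcnj11 it averaged 90.9 ± 0.621 (SD, n = 2) in alpha cells, 36.9 ± 41.3 (SD, n = 3) in beta cells, and 85.0 ± 11.0 (SD, n = 2) in delta cells. Of 210 possible groupings of the libraries, 32 separated the cell types as much (exact permutation test without direction, p = 0.152, adjusted over the 4 members 0.610). For Abcc8 the averages were 80.3 ± 12.1, 82.4 ± 15.3, and 74.5 ± 9.33 in the same order (SD, exact permutation test, p = 0.762, adjusted 1.00). Ranked within the 50000 intervals of lowest p of each list, an alternative chosen after seeing the data, Kcnj11 gave 0.105 and Abcc8 0.981 (exact permutation test, unadjusted p). Within lane 7, the Kcnj11 percentile was 29.3 and 81.5 in the beta libraries and 92.8 and 77.2 in the delta libraries, which overlap. Within lane 6, it was 91.4 and 90.5 in the alpha libraries and 0 in beta 1.

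The vascular pair had far fewer TSS peaks. At the 5′ end of Abcc9, no library had a peak, and none appeared in a window of 3 kb, at any other annotated transcript start, or in the stricter lists. Peak lists hold no reads outside peaks, so the signal below the caller's threshold is unknown. Kcnj8 had a TSS peak in 3 libraries, with a fold enrichment of 3.75 in alpha 1, 2.86 in alpha 2, and 1.80 in beta 1. The first reached a -log10 q of 2.16, the second 1.00, and the third 0.08, which is the lowest value of the beta 1 list. The alpha peaks have their summits 189 and 441 bp into the gene, outside the printed promoter. The Kcnj8 percentile averaged 42.3 ± 33.0 in alpha and 16.0 ± 27.8 in beta cells and was 0 in delta cells (SD, exact permutation test, p = 0.371, adjusted 0.743). For Abcc9, with 0 in every library, the exact permutation test can give no p other than 1.00.

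Counted over members, 3 of the 4 genes had a TSS peak in both alpha libraries, 2 in 2 or more beta libraries, and 2 in both delta libraries. Over all 21938 protein-coding genes these shares were 56.8%, 56.1%, and 54.1%. Abcc8 was the only member with a TSS peak in all 7 libraries, as were 41.5% of protein-coding genes, and Abcc9 was the only member with none, as were 17.3%. The neighbours Nomo1 and Ush1c had a TSS peak in 7 of 7 libraries each, with percentiles of at least 76.5.

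**Figure D1:**
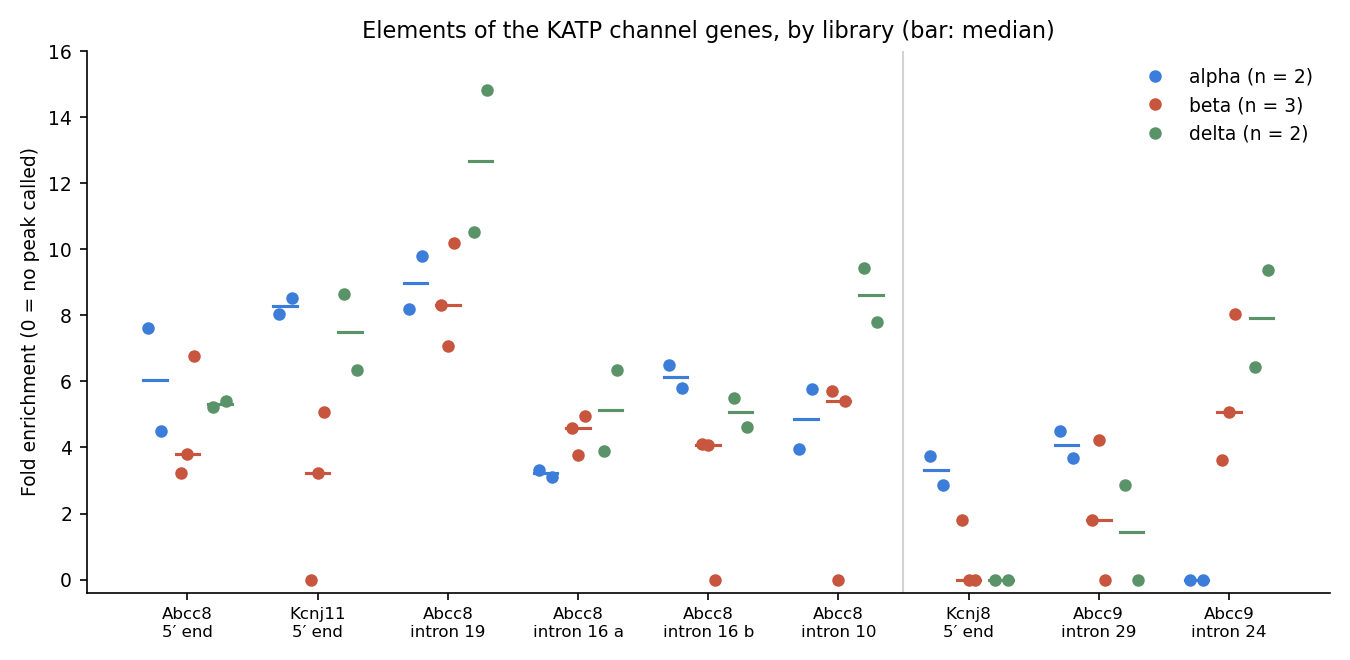
Fold enrichment of the peak at each of 9 elements (horizontal axis) in each library (points, 2 alpha, 3 beta, and 2 delta), with 0 where no peak was called and a bar at the median of the cell type. The Abcc8 intron 19 element is at 7.06 or more in all 7 libraries, and the Abcc9 intron 24 element is at 0 in both alpha libraries and at 3.61 or more in the others.

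Inside Abcc8, a few elements were shared by nearly all libraries. Of 47 merged regions in the chromosome 7 window, 19 were called in at least 2 libraries, 28 in only 1, and 3 in all 7. The strongest was the intron 19 element (chr7:46122881-46123496, intron 19 of 38). Its fold enrichment was 8.20 and 9.79 in alpha cells, 8.33, 7.06, and 10.19 in beta cells, and 10.53 and 14.83 in delta cells. It had the highest fold enrichment and the lowest p of its window in 7 of 7 libraries, above the promoters of both Abcc8 and Kcnj11, with percentiles of 91.7 to 99.1. By fold enrichment, both delta values were above all alpha and beta values. By percentile, beta 1 at 99.1 stood above delta 1 at 95.6 and delta 2 at 96.5. The summits of the 7 libraries lay within 133 bp, at 96 to 229 bp before the annotated start of the antisense RNA gene Gm45486. A second element in all 7 libraries (chr7:46128069-46128596) lies in intron 16 of Abcc8 and within Gm45486, at a fold enrichment of 3.10 to 6.36. The third was the TSS of Abcc8.

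The other intron 16 element (chr7:46131023-46131851) was called in 6 libraries, all with a -log10 q of at least 2. Its fold enrichment was 6.50 and 5.80 in alpha, 4.11 and 4.07 in beta 1 and beta 2, and 5.51 and 4.63 in delta cells, and beta 3 had no peak. The alpha values were the highest at this element by fold enrichment. The percentiles were 86.4 and 82.6 in alpha, 95.3 and 67.3 in beta 1 and beta 2, and 84.8 and 61.1 in delta cells. At the intron 10 element (chr7:46145559-46146380), the values were 3.95 and 5.77 in alpha, 5.71 and 5.41 in beta 1 and beta 3, and 9.44 and 7.79 in delta cells, with none in beta 2. Here both delta libraries were again above all others by fold enrichment. They were not by percentile, at 69.8 and 78.0 in alpha, 97.9 and 82.7 in beta 1 and beta 3, and 92.0 and 81.3 in delta cells. In all, 6 regions of both windows were called in 6 or 7 libraries, all on chromosome 7, of which 5 had their summit inside Abcc8 and the other was the Kcnj11 TSS. The number called in every library left was 3 with all libraries and 4 without beta 1, the latter an alternative chosen after seeing the data. A region between Nomo1 and Kcnj11 (chr7:46084677-46085560) was called in both alpha and both delta libraries and in beta 3, at a fold enrichment of 2.93 to 5.71.

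**Figure D2:**
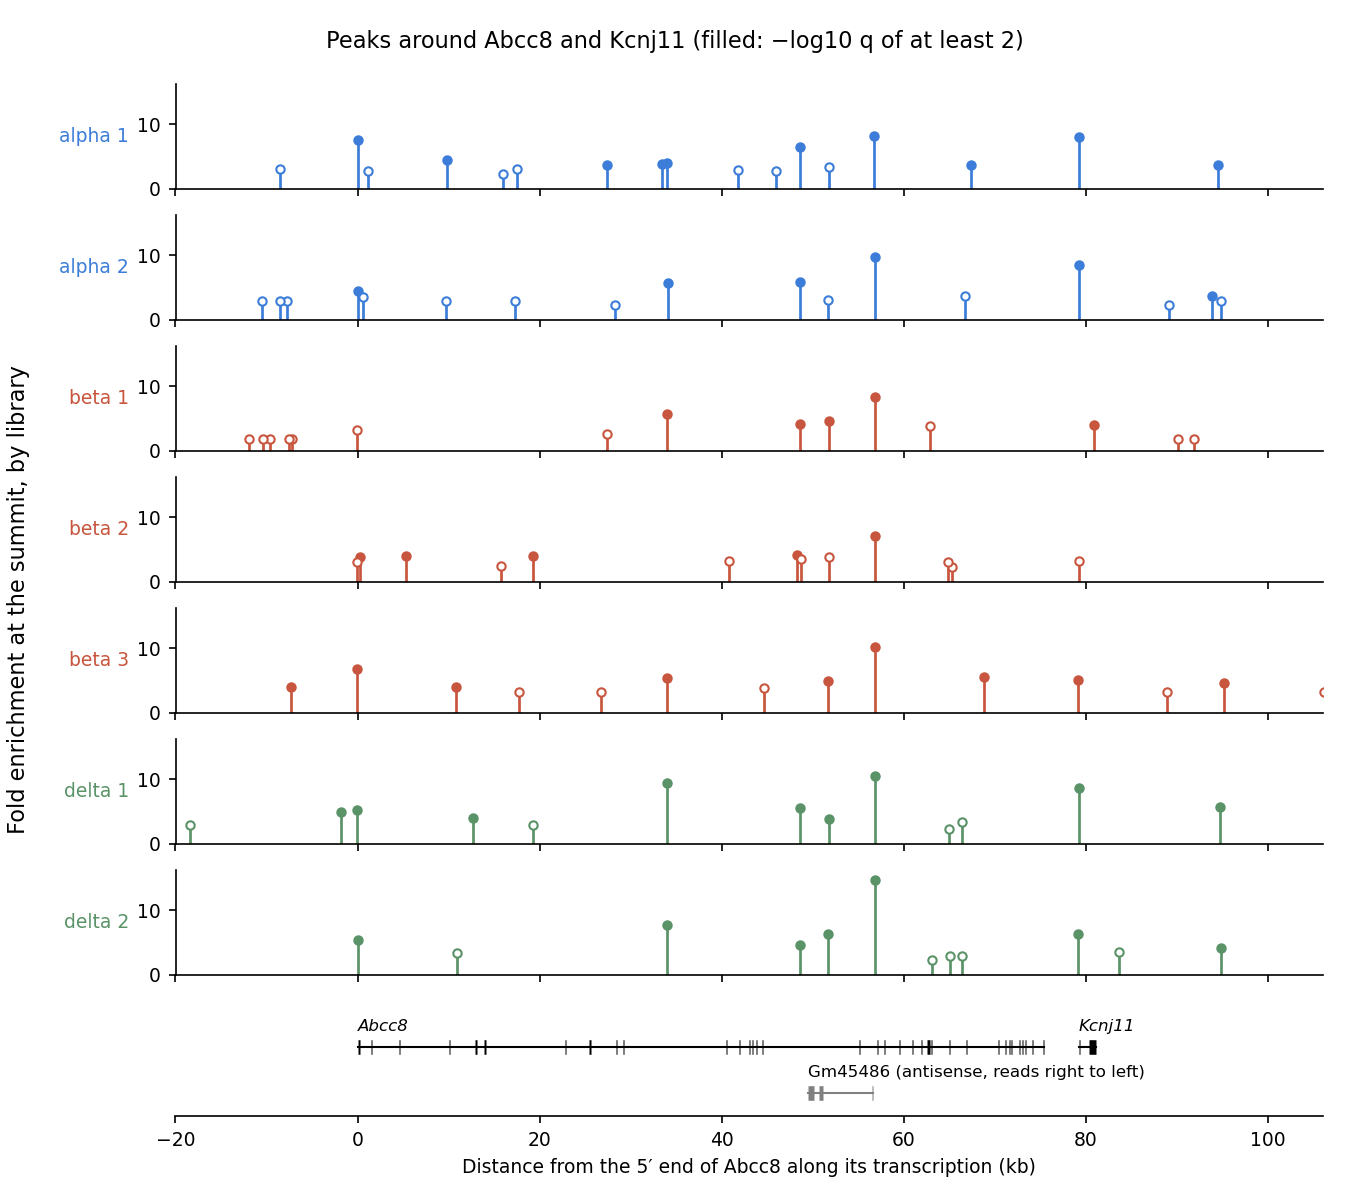
Peaks of the Abcc8 and Kcnj11 window in the 7 libraries, with the fold enrichment at the summit (vertical axis) against the distance from the 5′ end of Abcc8 along its transcription in kb (horizontal axis), filled where the -log10 q is at least 2. The exons of both genes and of the antisense RNA gene Gm45486 are drawn below, and the tallest peak of each library is the intron 19 element, at 7.06 to 14.83.

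In the Abcc9 and Kcnj8 window, 2 regions were called in at least 2 libraries at a -log10 q of at least 2. Of its 34 merged regions, 7 were called in at least 2 libraries, 27 in only 1, and none in all 7, and 16 of the 27 were called in beta 1 alone. The intron 24 element (chr6:142631886-142632142, intron 24 of 39) was called in 3 of 3 beta and 2 of 2 delta libraries and in 0 of 2 alpha libraries. Its fold enrichment was 3.61, 5.08, and 8.03 in the beta and 6.45 and 9.38 in the delta libraries, and its -log10 q ran from 2.44 to 12.32. It was the strongest peak of the window in all 5 of these libraries, and their summits lay within 17 bp. Alpha 2 had a separate peak 412 bp away (chr6:142631274-142631473), with a fold enrichment of 2.93 and a -log10 q of 1.02. In alpha 1, the nearest peak was 11.5 kb away. Over all merged regions, 0.0822% were called in every beta and delta library and in no alpha library, and 1 of the 81 of both windows was (1.23%). At a -log10 q of at least 2 this pattern held for 0.268% of 111614 regions, and for 1 of 25 here (4.0%). Within lane 6, the element was called in beta 1 and in neither alpha library, and within lane 7 in both beta and both delta libraries. It coincides with the agttc repeat printed above, whose part in the calls was not tested. Of the 92 windows with a repeat as long, 1 (1.09%) had this pattern, which is this element, and 6 (6.52%) were called in all 7 libraries, and of all 133685 windows 0.513% had the pattern.

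The antisense RNA gene in Abcc9 also had a peak at its start. This region (chr6:142614246-142614721, intron 29 of Abcc9) spans the start of 5330439B14Rik, and the summits of its 5 libraries ran from 179 bp before that start to 113 bp after it. Its fold enrichment was 4.50 and 3.67 in alpha, 1.80 and 4.24 in beta 1 and beta 2, and 2.87 in delta 1. Beta 3 and delta 2 had no peak, and 3 of the 5 calls reached a -log10 q of 2. Both receptor genes thus had a peak at the start of an antisense RNA gene, in 7 libraries at Gm45486 and in 5 at 5330439B14Rik. A region in intron 15 of Abcc9 (chr6:142662241-142662670) was called in both alpha libraries, at 6.25 and 2.20, and in delta 2 at 3.36, while all beta libraries lacked it. It was the strongest peak of the window in alpha 1, whereas its -log10 q in alpha 2 was only 0.18. A region in intron 28 (chr6:142623477-142623844) was called in beta 1 at 2.70 and in beta 3 at 4.02 and in no other library.

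**Figure D3:**
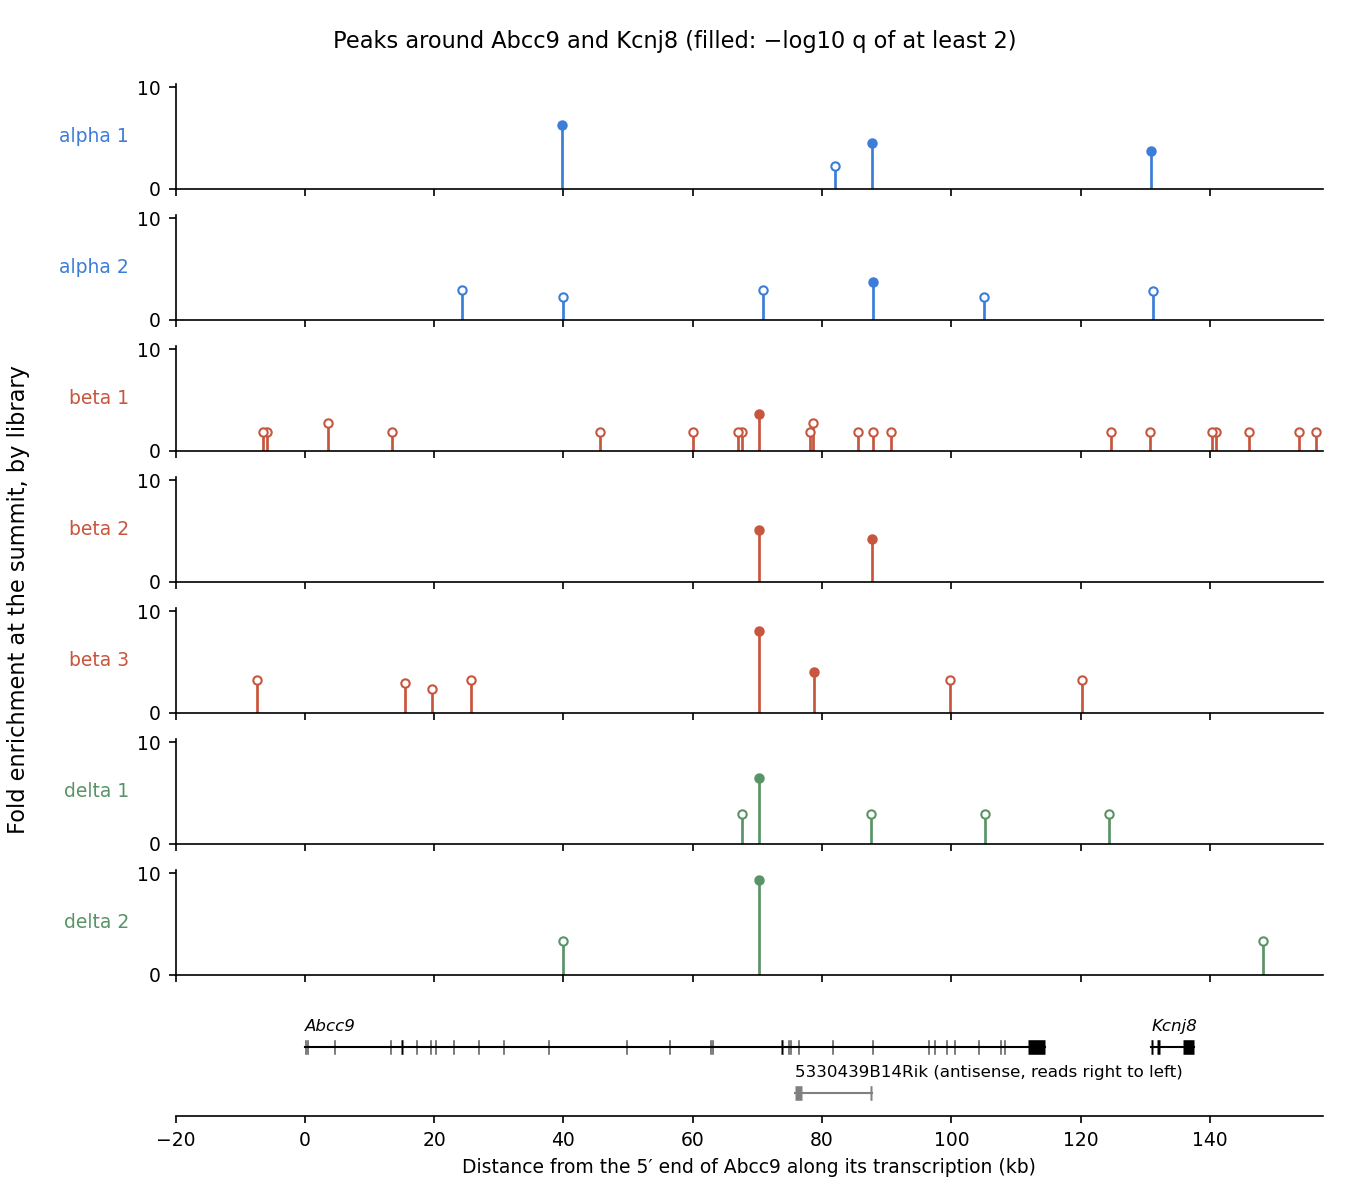
Peaks of the Abcc9 and Kcnj8 window in the 7 libraries, with the fold enrichment at the summit (vertical axis) against the distance from the 5′ end of Abcc9 along its transcription in kb (horizontal axis), filled where the -log10 q is at least 2. The exons of both genes and of the antisense RNA gene 5330439B14Rik are drawn below. The intron 24 element is the tallest peak of all beta and delta libraries, at 3.61 to 9.38, and most peaks of beta 1 are open circles of low enrichment.

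The pairs differed in how densely peaks were called. The chromosome 7 window held 17 and 17 intervals in the alpha libraries, 15, 13, and 14 in the beta libraries, and 13 and 12 in the delta libraries. The larger chromosome 6 window held 4 and 6, then 21, 2, and 8, and then 5 and 3. Per 100 kb, the chromosome 7 window was higher in 7 of 7 libraries, by 7.50 ± 3.65 (SD, n = 7, two-sided exact sign-flip permutation test over libraries, p = 0.0156, the smallest it can give). Beta 1 alone showed nearly no difference, with 11.9 and 11.8 per 100 kb, and 18 of its 21 chromosome 6 intervals stood at the lowest -log10 q of its list. At a -log10 q of at least 2 the difference was 4.89 ± 1.46 (SD, n = 7), again higher in 7 of 7 (exact sign-flip permutation test, p = 0.0156). The windows differ in gene content, and the chromosome 7 window holds parts of Nomo1 and Ush1c. Over the gene bodies and their own flanks of 20 kb, Abcc8 lay at or above the percentile of 85.5 of protein-coding genes by intervals per 100 kb in 6 libraries and at 21.3 in beta 1, where the full list is longest. At the stricter threshold it lay between 75.8 and 95.5 in all 7. Abcc9 lay between 9.80 and 47.3 with the full lists and between 19.2 and 40.8 at the stricter threshold, below the median in every library. Kcnj8 lay between 5.45 and 32.7, whereas Kcnj11 ranged from 4.94 in beta 1 to 96.7 in delta 2.

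Between cell types, the chromosome 7 window held 13.5 ± 0 intervals per 100 kb in alpha (SD, n = 2), 11.1 ± 0.793 in beta (SD, n = 3), and 9.91 ± 0.561 in delta cells (SD, n = 2). Of 210 assignments, 6 gave a difference as large (exact permutation test without direction, p = 0.0286, adjusted over both windows 0.0571). The order did not hold at a -log10 q of at least 2, where the libraries had 10 and 6 intervals in alpha cells, 5, 5, and 9 in beta cells, and 9 and 7 in delta cells (exact permutation test, p = 0.638). The libraries of lane 6 had 15 to 17 intervals and those of lane 7 had 12 to 14, without overlap. Within lane 6 the alpha libraries had 17 each and beta 1 had 15, and within lane 7 the beta libraries had 13 and 14 and the delta libraries 13 and 12. The part of the lane in the pooled difference was not tested further. In the chromosome 6 window the cell types did not separate, at 2.82 ± 0.797, 5.82 ± 5.47, and 2.25 ± 0.797 per 100 kb (SD, exact permutation test, p = 0.724, adjusted 0.724).

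**Figure D4:**
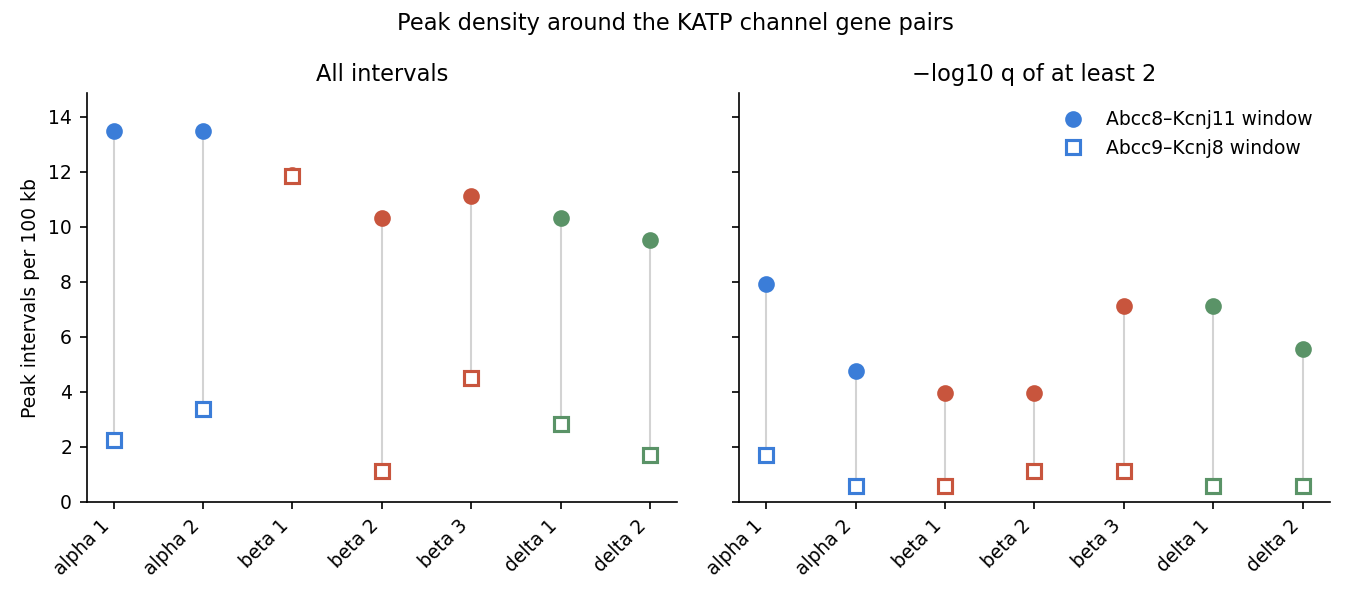
Peak intervals per 100 kb (vertical axis) in each library (horizontal axis) for the Abcc8 and Kcnj11 window (filled circles) and the Abcc9 and Kcnj8 window (open squares), with all intervals on the left and those with a -log10 q of at least 2 on the right. The circle is above the square in all 7 libraries in both panels, and in beta 1 on the left they nearly coincide at 11.9 and 11.8.

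Regions with a peak in 2 or more replicates were called open in that cell type. In the chromosome 7 window, 10 regions were open in alpha cells, 7 in beta cells, and 9 in delta cells, and 6 were open in all types. At a -log10 q of at least 2, the order was another one, with 5, 5, and 7, and 4 were open in all types. In the chromosome 6 window the numbers were 3, 3, and 1, and 1 each at the stricter threshold, and none was open in all types. Over both windows, 16.0%, 12.3%, and 12.3% of the 81 regions were open in alpha, beta, and delta cells, against 5.45%, 6.75%, and 5.38% of all merged regions. In the full lists, 32.1% were called in at least 2 libraries, against 16.0% of all, and 3.70% in all 7, against 2.13%. At a -log10 q of at least 2, 7 of 20 regions on chromosome 7 and 2 of 5 on chromosome 6 were called in at least 2 libraries. Over all lists it was 51202 of 111614, so the share here was not above that of all regions. The shares over all regions hold the many weak intervals of beta 1, which differ in number between windows. At the stricter threshold, the shares of all regions open in a cell type were not computed.

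Regions open in one cell type and absent from every replicate of another were few. Of the 81, 4 were open in alpha and absent from beta cells (4.94%, against 0.867% of all regions) and 4 open in alpha and absent from delta cells (4.94%, against 0.861%). In the first 4 were 3 weak chromosome 7 regions in intron 6 and intron 3 of Abcc8 and upstream of it, called in both alpha libraries at a fold enrichment of 2.90 to 4.50 and in no other library, and the Abcc9 intron 15 region. The second 4 were the same chromosome 7 regions and the Kcnj8 TSS. Open in beta and absent from alpha cells were 2 (2.47%, against 2.37%), which are the intron 24 and intron 28 regions of Abcc9. Open in delta and absent from alpha cells were 3 (3.70%, against 0.821%), the intron 24 element and weak regions in introns 27 and 28 of Abcc8. Open in beta and absent from delta cells were 2 (2.47%, against 2.12%), and 1 was open in delta and absent from beta cells (1.23%, against 0.778%). At a -log10 q of at least 2, none of the regions was open in alpha and absent from beta cells, and 1 was open in alpha and absent from delta cells, at the start of 5330439B14Rik. At this threshold 2 regions were open in both beta and delta cells and absent from alpha cells. They were the intron 24 element of Abcc9 and the intron 16 element within Gm45486, whose alpha peaks stood at a -log10 q of 1.66 and 1.51. The stricter lists gave 25 regions here, and the shares of all regions for these counts were not computed.

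The lists of related genes were read at the TSS in the same way, as the number of genes with a TSS peak that 2 or more replicates share. Of 13 other Kcnj genes, which encode further inwardly rectifying potassium channels, 6 had one in each cell type, against 56.8%, 56.1%, and 54.1% of all protein-coding genes in alpha, beta, and delta cells. At a -log10 q of at least 2 these were 6, 3, and 5. The share of all protein-coding genes at this threshold was not computed for any list or marker set. The beta lists held the fewest intervals at it. Kcnj2 and Kcnj3 had one in all 7 libraries, and Kcnj1 and Kcnj15 were among 4 with none. Of 9 other Abcc genes, which encode transporters and the chloride channel Cftr, 5 had one in each cell type, among them Abcc1, Abcc10, Abcc4, and Abcc5, each in all 7 libraries. Of 17 genes of the path from glucose uptake to exocytosis, 11 had one in alpha cells, and 9 each in beta cells and delta cells, and at the stricter threshold 10, 7, and 9. Glud1, Pcx, and Pdha1 of mitochondrial metabolism had one in all 7 libraries. A mixed list of 8 genes, drawn up as possible partners of the channel, had 7, 5, and 7. The ankyrin genes Ank2 and Ank3, the kinase gene Camk2d, and the polycystin gene Pkd1 had one in all 7 libraries. Of 8 transcription factors linked to the promoters of this channel or to the islet, 7, 7, and 8 had one, with Foxa1, Foxa2, and Neurod1 in all 7.

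Mural cells, which use the Abcc9 and Kcnj8 channel, were scored by 8 markers (Rgs5, Pdgfrb, Acta2, Myh11, Notch3, Cspg4, Higd1b, and Tagln). The alpha libraries had 5 and 4 of these TSS peaks, the beta libraries 4, 0, and 3, and the delta libraries 4 and 3. The summed percentile of the list was 199 to 219.7 in alpha, 0 to 192 in beta, and 151 to 225 in delta libraries. Of 6 endothelial markers, the libraries had 0 to 2, and Cdh5 and Tie1 had none in any. The mural sums overlap between cell types. Among the libraries with a Kcnj8 peak, alpha 1 had 5 mural markers and alpha 2 and beta 1 had 4 each. Among those without one, beta 2 had 0, beta 3 and delta 2 had 3 each, and delta 1 had 4. With a -log10 q of 2 required, the mural markers numbered 2 in every alpha and delta library and in beta 3, and 0 in beta 1 and beta 2. The part of mural cells in the Kcnj8 and Abcc9 peaks was not tested further.

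By the TSS percentiles across the 7 libraries, the protein-coding genes nearest to Abcc8 were Snx9, Dirc2, and Hspbap1, at a Euclidean distance of 11.3, 11.6, and 11.6 percentile points. Nearest to Kcnj11 were Maml3 and Kcna4, at 12.0 and 15.0. Nearest to Kcnj8 were Hhipl1, Ndufb8, and Adam33, at 1.18, 11.8, and 17.7. Each had exactly the Kcnj8 percentiles of 65.6 in alpha 1 and 48.1 in beta 1, and no peak in beta 2 or beta 3. The Kcnj8 peak of beta 1 stood at the lowest -log10 q of its list, so these distances rest on tied values and absent peaks. Hspbap1 and Dirc2 had the same percentile in every library. For Abcc9, which had no TSS peak in any library, no such gene was named.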

How the data were processed

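Peak lists of 7 ATAC-Seq libraries were analysed, grouped by the cell type and replicate in their titles. Before deposition, the authors trimmed the single-end reads (Trimmomatic), mapped them to GRCm38 lacking the mitochondrial genome (Bowtie 2), flagged duplicates (Picard), filtered blacklisted regions, and ran MACS2 once per library. The MACS2 threshold is not given in the sources used here. Each deposited peak carries a -log10 p and a -log10 q that the authors obtained from that library's reads. Its fold enrichment is the authors' ratio of summit signal to local background. The deposited score is 10 times the -log10 p and served only to check the columns.

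An interval listed with several summits was kept as 1, and intervals sharing 1 bp or more were joined across lists. Genes, exons, and starts came from GENCODE vM21, with introns and exons numbered on transcript 201 of Abcc8, Kcnj11, and Abcc9. Promoters lay within 3 kb of a start. Lists hold no read counts, so presence and rank were compared. Exact permutation tests ran over 210 assignments of the libraries (smallest p 0.00952) or over sign flips (smallest p 0.0156), with Benjamini-Hochberg adjustment. A comparison of 2 against 3 libraries cannot go below 0.1 and of 2 against 2 not below 0.333, so cell types were not tested in pairs. The labels call the replicates biological, from pools of mice. The paper compared cell types from the same animals, and the labels do not give which libraries share mice. The tests between cell types treated the 7 libraries as independent. The lists hold no reads, so no detection limit could be set where a peak was absent, and the study's read totals were not used here.

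The members and gene lists were chosen with earlier results of these data known. Named genes are the members, protein-coding genes in the windows, up to 4 genes per list (those with a TSS peak in all libraries, then in none, by alphabet), the 3 nearest genes by TSS percentile, and the markers. Some genes that this rule names are not reported here. The Abcc9 intron 24 repeat was searched after its sequence was seen. Results were recomputed at a -log10 q of 2 or more, on the 50000 intervals of lowest p, without the flank or with 50 kb, by bases covered, requiring 0.5 of a region to be covered, within 3 kb of a start, at all annotated transcript starts, with a replicate block, and leaving out 1 library at a time. The steps were tested on simulated lists. Versions were Python 3.11.15, samtools 1.23.1, numpy 2.4.6, scipy 1.17.1, pandas 2.3.3, and matplotlib 3.10.9.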

Additional observations from a re-analysis of the deposited data

How the results depend on the processing

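Of 270 values recomputed under an alternative, 238 stayed on their side of the threshold or within 1.5 times of the count, and 32 moved. The mean difference in peak density, higher around Abcc8 and Kcnj11, kept its direction under all alternatives, at 2.64 percent of bases or 4.89 to 8.79 intervals per 100 kb. Without the flank, the exact sign-flip permutation test over all 7 libraries gave p = 0.0312, above the smallest it can give. Not every library was therefore higher on chromosome 7 in that setting. No other test passed 0.05 after adjustment, in the full lists or under an alternative. With the -log10 q of at least 2, and likewise with the 50000 intervals of lowest p, open regions numbered 5 on chromosome 7 and 1 on chromosome 6 for alpha and 1 on chromosome 6 for beta cells. The Kcnj8 TSS was then called in 1 library, and regions open in one type and absent from another numbered 0 (alpha, not beta), 1 (alpha, not delta), 0 (beta, not delta), and 0 (delta, not beta). With coverage of at least 0.5, open regions on chromosome 7 were 5 for alpha and 4 for beta, and beta, not delta was 1, as it was with no flank. With a flank of 50 kb, the counts were 7 (alpha, not beta), 4 (beta, not alpha), and 4 (beta, not delta).

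With each library left out in turn, open beta regions ranged from 4 to 7 on chromosome 7, with 4 without beta 1 or beta 3, and from 1 to 3 on chromosome 6, with 1 without beta 1. Counts ranged from 1 to 3 for beta, not alpha (1 without beta 1 or beta 3), from 0 to 3 for beta, not delta (0 without either), and from 1 to 2 for delta, not beta (2 without beta 2 or beta 3). A cell type left with 1 library could have no open region and gave no value. Correlations of the deviations of same-numbered libraries ran from -0.05 to 0.33. With so few replicates, and as the numbers need not follow shared mice, these values cannot tell whether libraries are paired. With a replicate block, the adjusted p of the chromosome 7 density was 0.111 (exact permutation test), and no call changed.

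Beta 1, lane, and label limits bear on every beta count. Alpha and delta cells have 2 libraries each, which limits all comparisons, and peak lists give no level where no peak was called.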
